A study of Mus musculus with 18 samples.

Results

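The genes described here are 10 genes of cardiac and lateral mesoderm, taken by name: the transcription factor genes *Hand1*, *Hand2*, *Isl1*, *Nkx2-5* and *Tbx5*, and the genes *Myl7*, *Myl4*, *Tnnc1*, *Tnnt2* and *Actc1*, which encode proteins of the contractile apparatus. All 10 were found, among 20310 genes in the table of differentiation stages and among 20495 genes in the table of fibroblast libraries. No measured value entered their choice, although the list was drawn up with earlier results of these data known.

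Lateral plate mesoderm leaves the primitive streak and gives rise to heart, blood vessels, blood and limb bud mesenchyme. The hemangioblast, a FLK1+ mesodermal cell with the capacity to form blood, endothelium and smooth muscle, comes from the same sheet of mesoderm as the heart progenitors. In the early heart, GATA, T-box, HAND, ISL1 and NKX2-5 factors are active ahead of the genes for the contractile proteins, and atrial light chains and troponins are among the first sarcomere genes expressed.

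RNA was sequenced in 18 samples of mouse cells of strain 129. The first 10 samples, 2 per stage, came from 1 ES cell line that carries a GFP reporter at brachyury and was grown on embryonic fibroblasts: ES cells (ESC), mesoderm sorted as Bry.GFP+ and FLK1- (MES), hemangioblasts sorted as Bry.GFP+ and FLK1+ (HB), hematopoietic progenitors sorted as CD41+ (HP) and CD11b+ macrophages (MAC). The other 8 were single libraries of mouse embryonic fibroblasts (MEFs) of embryonic day 14.5, which were left untreated (uFIB) or given *Scl* (*Tal1*) and *Lmo2* (SL), these and *Fli1* and *Gata2* (SFGL), or *Gata2*, *Fli1* and *Lmo2* without *Scl* (FGL), and were taken on day 12 or day 21. The experiments used wild-type MEFs or MEFs of a mouse with rtTA and TRE-TAL1 cassettes, in which doxycycline induces TAL1, and the labels do not say which MEFs gave which library. According to the methods, cells with markers of blood or endothelium (CD45, CD41, CD31 or CD117) had been sorted out of the MEFs beforehand.

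Expression was given as FPKM, the number of fragments scaled to transcript length and to the reads aligned, with both replicates of a stage already combined into 1 value by the authors. No value therefore has a replicate error, no difference was tested, and the number of reads behind a value is unknown. Pluripotency, primitive streak, hemangioblast and endothelial, blood progenitor and macrophage markers had their highest summed FPKM in ESC, MES, HB, HP and MAC, in that order. Within these lists, *Mixl1* and *Eomes* of the primitive streak were higher in HB (80.5 and 55.0 FPKM) than in MES (46.9 and 34.9 FPKM), and *Tal1*, *Cdh5* and *Pecam1* were higher in HP than in HB, so the lists do not separate neighbouring stages gene by gene. The 7 fibroblast markers used summed to between 5982 and 7866 FPKM for uFIB and FGL and to between 1273 and 2614 FPKM for SL and SFGL. In the library labelled FGL at day 12 *Tal1*, which the label leaves out, was at 7.04 FPKM against 0.0414 FPKM for uFIB. In that at day 21 *Fli1*, which the label names, was at 3.35 FPKM against 3.02 FPKM for uFIB. *Lmo2* (36.2 and 66.5 FPKM) and *Gata2* (21.9 and 35.1 FPKM) were above uFIB in FGL on both days, as labelled. SL, not given *Fli1* or *Gata2*, had them at 46.7 and 68.8 FPKM at day 12. Such values do not separate a transgene from the cells' own gene.

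Of the members, 8 of 10 matched a RefSeq promoter window (GRCm38.p6). The 250 bases before the start site are shown for those with a window that were higher in HB than in MES (*Hand2*, *Myl7* and *Myl4*) and for *Actc1*, which shared a motif with *Myl7* and not its profile. Capitals mark matches to the motifs searched on both strands, GATAA (the core bound by GATA factors), CANNTG (the E-box of HAND and other bHLH factors), AGGTGT (T-box), TATAAA, the CArG box of SRF and the MEF2 site, within which TATAAA can lie.
Hand2, chr8:57320733-57320982, plus strand: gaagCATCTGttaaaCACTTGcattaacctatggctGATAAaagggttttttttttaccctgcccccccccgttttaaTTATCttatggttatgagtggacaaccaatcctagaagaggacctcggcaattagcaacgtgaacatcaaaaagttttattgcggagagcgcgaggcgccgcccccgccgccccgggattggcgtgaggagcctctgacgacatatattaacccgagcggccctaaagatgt
Myl7, chr11:5898783-5899032, minus strand: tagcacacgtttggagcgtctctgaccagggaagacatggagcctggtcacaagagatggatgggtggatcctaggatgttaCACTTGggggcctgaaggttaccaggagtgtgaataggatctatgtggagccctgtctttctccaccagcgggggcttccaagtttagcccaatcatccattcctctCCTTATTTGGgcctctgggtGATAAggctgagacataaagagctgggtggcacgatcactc
Actc1, chr2:114052876-114053125, minus strand: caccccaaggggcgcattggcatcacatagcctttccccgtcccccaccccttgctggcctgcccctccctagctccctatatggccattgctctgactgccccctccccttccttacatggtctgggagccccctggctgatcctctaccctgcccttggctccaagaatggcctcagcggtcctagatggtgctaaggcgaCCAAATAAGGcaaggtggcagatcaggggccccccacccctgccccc
Myl4, chr11:104550413-104550662, plus strand: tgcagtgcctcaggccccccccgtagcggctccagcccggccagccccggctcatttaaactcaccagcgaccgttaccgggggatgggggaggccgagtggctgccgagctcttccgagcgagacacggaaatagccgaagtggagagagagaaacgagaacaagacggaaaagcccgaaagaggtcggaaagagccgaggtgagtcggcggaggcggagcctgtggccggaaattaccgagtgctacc
In *Myl7* a CArG box began 61 bases before the start site and a GATAA match lay 41 bases before it. In *Actc1* a CArG box lay 47 bases before the RefSeq start. That start lies upstream of the one behind the authors' values (chr2:114052811), and the bases between the 2 were not searched. A CArG box was found in 1.47% of all 32851 windows, GATAA in 22.6% and CANNTG in 66.2%. The *Hand2* window held GATAA matches 214 and 172 bases and CANNTG matches 246 and 235 bases before the start, and the *Myl4* window held none of the motifs. Members not counted as higher in HB held these motifs too: GATAA for *Tnnt2* and *Isl1*, and CANNTG for *Tnnt2*, *Isl1*, *Tnnc1* and *Nkx2-5*. *Actc1* held neither. AGGTGT (11.8% of windows), TATAAA (12.4%) and the MEF2 site (2.92%) were not found in the window of any member. These matches are letters in a sequence and were not measured as binding sites.

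Expression of the members was highest in HB. Summed over the 10 genes it was 14.5 FPKM for ESC, 18.2 for MES, 42.0 for HB, 12.0 for HP and 4.16 for MAC, and the number of members with at least 1 FPKM was 4, 5, 7, 4 and 2. Of the 7 members that reached 1 FPKM in a stage, *Hand1*, *Hand2*, *Myl7*, *Myl4* and *Tnnc1* had their highest value in HB, *Isl1* in MES and *Actc1* in HP, where 18% of all genes that reached 1 FPKM were highest in HB, 6.11% in MES and 8.89% in HP. The same 5 members were highest in HB after all stages were scaled to 1 upper quartile (background 15.1%). In such mixed RNA, fewer cells of a type and less RNA per cell cannot be told apart.

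**Figure D1:**
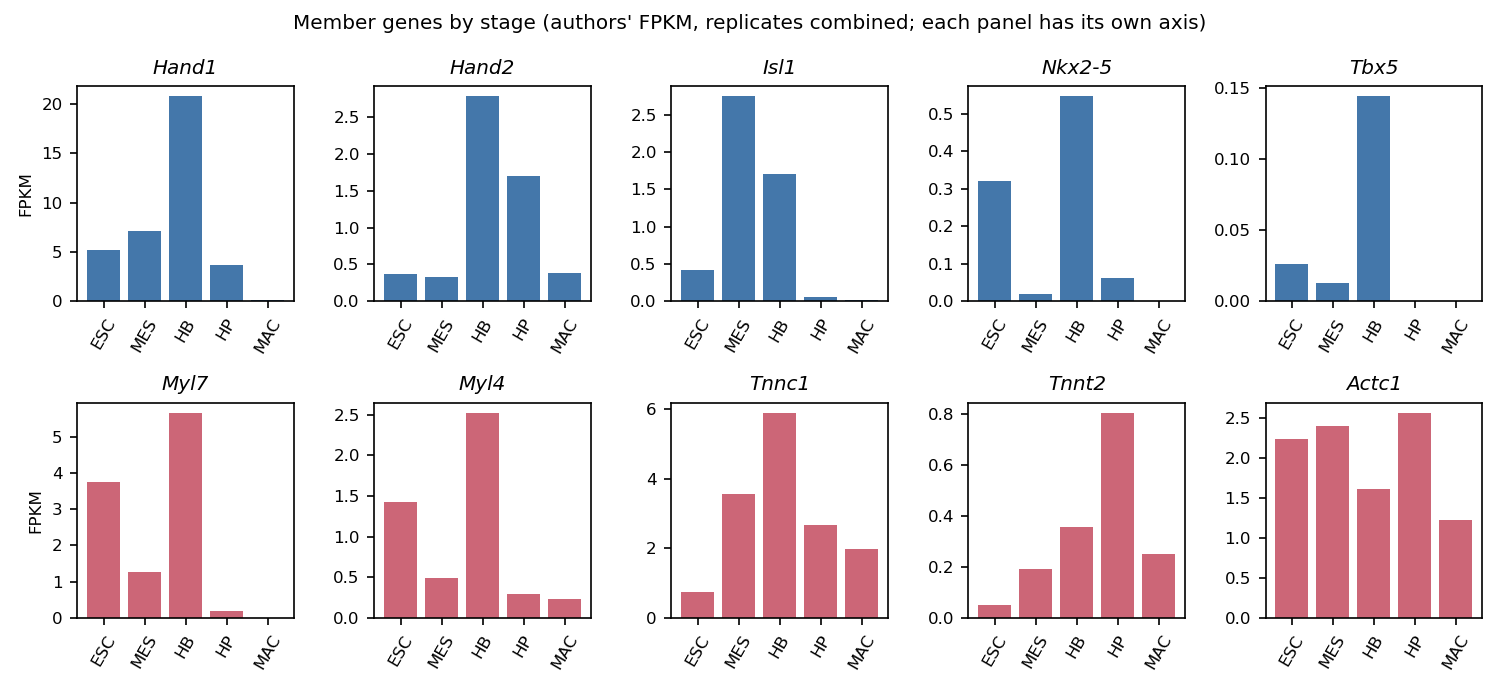
FPKM of the 10 members (1 panel each, with its own y axis from 0) in the 5 stages on the x axis, 1 bar per stage being the authors' value for both replicates; transcription factor genes are blue and contractile genes red. *Hand1* stands at 20.8 FPKM for HB, while *Nkx2-5*, *Tbx5* and *Tnnt2* stay under 1 FPKM in every stage.

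*Hand1*, a bHLH factor gene of the heart tube, lateral mesoderm and trophoblast (GRCm38 chr11:57828713-57832147, minus strand), was the most highly expressed member. Its values were 5.19 FPKM for ESC, 7.15 for MES, 20.8 for HB, 3.64 for HP and 0.0974 for MAC. Thus *Hand1* was present before mesoderm was sorted, peaked in HB and was nearly absent from macrophages. *Hand2*, the paralog that acts in right ventricle, limb and branchial arches (chr8:57320983-57324517, plus strand), was at 0.372 FPKM for ESC, 0.334 for MES, 2.79 for HB, 1.70 for HP and 0.377 for MAC. Unlike *Hand1*, it was under 1 FPKM for ESC and MES, while both genes were over 1 FPKM for HP.

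*Isl1*, a LIM homeodomain factor gene of the second heart field (chr13:116298270-116309688, minus strand), was the only one of the 10 with its highest value in MES, 2.75 FPKM. It was at 0.420 FPKM for ESC, 1.71 for HB, 0.0511 for HP and 0.0136 for MAC. Both Bry.GFP+ populations were thus above the other 3 stages. *Nkx2-5*, the homeodomain factor gene of cardiac progenitors (chr17:26838665-26841565, minus strand), was at 0.320 FPKM for ESC, 0.0183 for MES, 0.546 for HB, 0.0631 for HP and listed at 0 for MAC. *Tbx5*, the T-box gene of the first heart field and forelimb (chr5:119834663-119885218, plus strand), reached 0.144 FPKM for HB, was at 0.0262 for ESC and 0.0131 for MES and was listed at 0 for HP and MAC. Neither gene reached 1 FPKM at any stage, so their order among stages rests on low values of unknown depth.

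Among the contractile genes, the atrial light chain genes moved alike. *Myl7*, which encodes the atrial regulatory light chain (chr11:5896637-5898782, minus strand), was at 3.76 FPKM for ESC, 1.28 for MES, 5.66 for HB and 0.177 for HP and was listed at 0 for MAC. *Myl4*, which encodes the atrial essential light chain (chr11:104550663-104587219, plus strand), was at 1.42 FPKM for ESC, 0.492 for MES, 2.52 for HB, 0.294 for HP and 0.232 for MAC. Both had a low in MES between ESC and HB, as *Nkx2-5* and *Tbx5* had at lower levels. In ESC, where these genes were over 1 FPKM, the skeletal muscle gene *Mylpf* was at 36.2 FPKM and the embryonic globin gene *Hbb-bh1* at 29.9 FPKM, while the ventricular genes *Myl2* and *Myh7* were at 0.594 and 0.107 FPKM, and the part of other cells in the ESC values was not tested.

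*Tnnc1*, the gene for the calcium-binding troponin C of heart and slow muscle (chr14:31208312-31211711, plus strand), was at 0.742 FPKM for ESC, 3.57 for MES, 5.89 for HB, 2.67 for HP and 1.97 for MAC. It was the only member over 1 FPKM in all 4 stages after ESC besides *Actc1*. *Tnnt2*, the gene for cardiac troponin T (chr1:135836334-135852268, plus strand), was at 0.0519 FPKM for ESC, 0.192 for MES, 0.355 for HB, 0.804 for HP and 0.250 for MAC, summed over its 2 start sites. The first start site gave 0.329 FPKM of the HB value, and the second gave 0.711 FPKM of the HP value. *Actc1*, the gene for cardiac alpha actin (chr2:114047289-114052811, minus strand), was at 2.23 FPKM for ESC, 2.40 for MES, 1.61 for HB, 2.56 for HP and 1.22 for MAC, with no peak in HB. Its coding sequence is close to those of the other actin genes, so reads kept only where they align once may not give its full level.

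Between neighbouring stages a gene was counted as higher or lower when its FPKM differed at least 2-fold, on log2(FPKM + 0.001), and reached 1 FPKM in at least 1 of the stages. Differences are given on log2(FPKM + 1), a scale on which low genes seem to change less than they do. From ESC to MES, *Tnnc1* was 4.81-fold higher (log2 difference 1.39) and *Isl1* 6.54-fold higher (1.40), and *Myl7* was 2.95-fold lower (-1.06) and *Myl4* 2.89-fold lower (-0.70). Among all 10605 genes counted, 11.3% were higher and 12% lower, so the members moved in both directions at this step.

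From MES to HB, the step at which cells gain FLK1, 4 of the 7 members counted were higher and 0 lower, against 4.05% and 6.3% of the 10210 genes counted. *Hand2* was 8.34-fold higher (log2 difference 1.50), *Myl4* 5.13-fold (1.24), *Myl7* 4.44-fold (1.55) and *Hand1* 2.91-fold (1.42). The median difference of all genes was 0.13, which became -0.01 after scaling to 1 upper quartile, and the same 4 members met the limit then (3.38% of genes higher and 8.21% lower). *Tnnc1* (1.65-fold higher), *Actc1* (log2 difference -0.38) and *Isl1* (-0.47) did not meet it. *Tnnt2* (0.192 and 0.355 FPKM), *Nkx2-5* and *Tbx5* were under 1 FPKM in both stages and were not counted. The members counted as higher in HB thus held both *Hand* genes and both atrial light chain genes. Of the troponin genes, *Tnnc1* rose within the limit and *Tnnt2* was not counted.

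From HB to HP, 5 of 7 members counted were lower and 0 higher, against 12.8% lower and 12.3% higher among 10507 genes. *Isl1* was 33.4-fold lower (log2 difference -1.36), *Myl7* 31.9-fold (-2.50), *Myl4* 8.58-fold (-1.45), *Hand1* 5.70-fold (-2.23) and *Tnnc1* 2.20-fold (-0.91). The folds of *Isl1*, *Myl7* and *Myl4* divide by HP values of 0.0511, 0.177 and 0.294 FPKM, so their sizes rest on low values of unknown depth. *Hand2* (-0.49) and *Actc1* (0.45) stayed within the limit. The hemogenic endothelium stage that lies between HB and HP was not used here. In HP, *Hand1*, *Hand2*, *Actc1* and *Tnnc1* were still over 1 FPKM. *Acta2* was there at 87.3 FPKM, *Postn* at 23.3 FPKM and *Col1a1* at 13.1 FPKM. The 7 fibroblast markers had their highest sum of the stages, 60.6 FPKM, but *Thy1*, *Dcn* and *Lum* were at 0.0052, 0.37 and 0.24 FPKM. Of the 5 smooth muscle markers, *Acta2* was higher in HP than in HB by the 2-fold limit and *Cnn1* lower (0.855 against 4.02 FPKM). The part of fibroblast or smooth muscle cells in the HP values was not tested.

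From HP to MAC, *Hand1* was 37.4-fold lower (log2 difference -2.08), *Hand2* 4.51-fold (-0.97) and *Actc1* 2.10-fold (-0.68), and 0 of the 4 members counted were higher. The size of the *Hand1* fold rests on a low MAC value of 0.0974 FPKM. The background of this step depended on scaling, with 38% of 10824 genes higher and 16.9% lower as deposited (median 0.45), and 22.4% higher and 30.4% lower after scaling (median -0.21). *Tnnc1* (log2 difference -0.31) was within the limit as deposited and counted as lower after scaling.

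The other regulators of cardiac and lateral mesoderm, 27 genes on a list of their own, were counted in the same way. From MES to HB, 10 of the 16 counted were higher and *Mesp2* and *Hopx* were lower, with a median difference of 1.02 beside 0.13 over all genes. *Tbx3*, a T-box repressor gene of the conduction system, went from 3.99 to 32.5 FPKM and *Bmp4*, a ligand that patterns posterior and lateral mesoderm, from 10.9 to 39.4 FPKM. *Gata4*, whose product acts with NKX2-5 and HAND factors, was at 2.64, 4.34, 24.4, 2.04 and 0.151 FPKM from ESC to MAC and thus had its peak in HB as *Hand1* did. *Mesp1*, the earliest of these regulators in nascent cardiac mesoderm, was at 2.00, 52.9, 42.9 and 0.00916 FPKM from ESC to HP and listed at 0 for MAC, and *Foxh1*, a cofactor gene of Nodal signalling, was highest in HB at 83.1 FPKM. From HB to HP, 13 of 15 were lower and *Mef2c*, which also acts in blood cells, was higher (0.182 to 14.8 FPKM), with a median of -2.08 beside -0.13. From ESC to MES 6 of 14 were higher and 0 lower (median 0.59 beside 0.00), and from HP to MAC 3 of 11 were higher and 7 lower (median -1.23 beside 0.45).

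**Figure D2:**
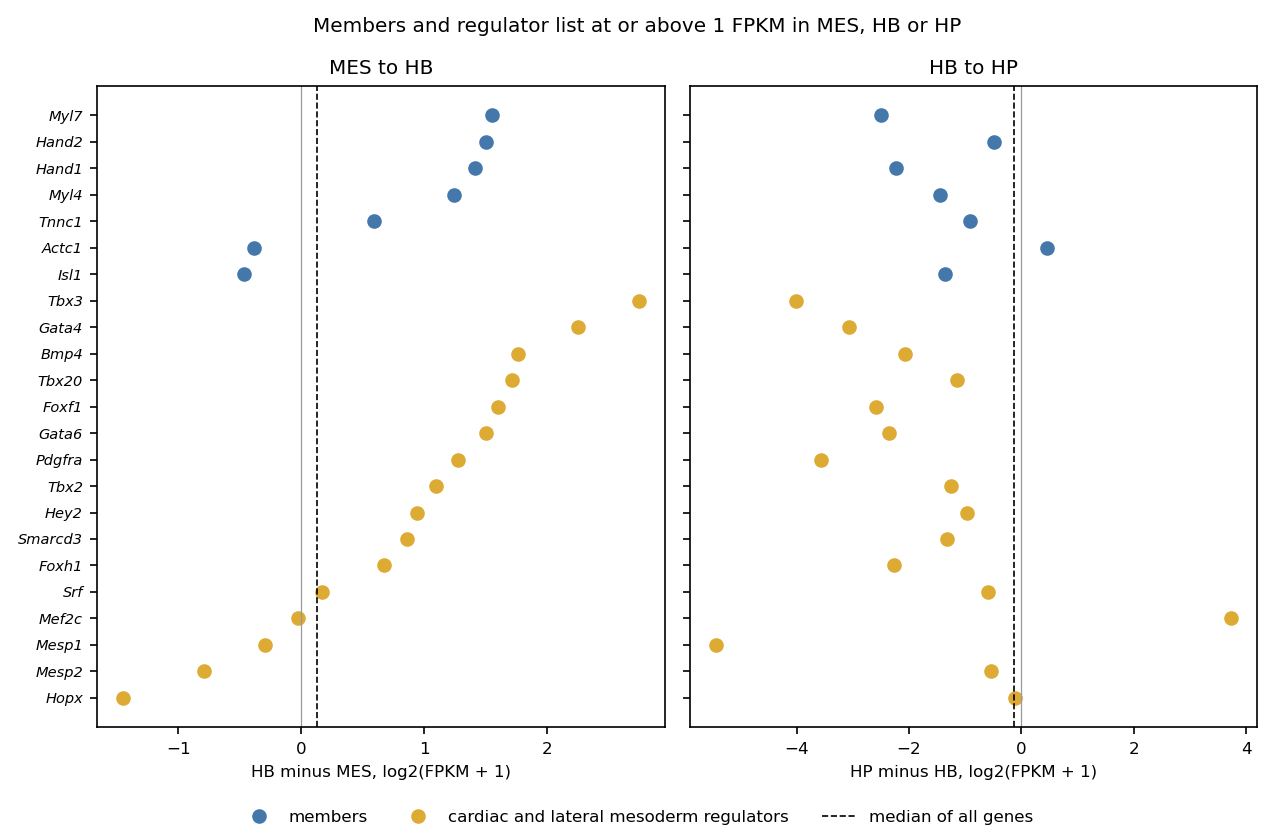
Difference in log2(FPKM + 1) from MES to HB (left x axis) and from HB to HP (right x axis), 1 point per gene (y axis), for members (blue) and reported regulators of the list (yellow) with at least 1 FPKM in 1 of the 3 stages; the dashed line is the median of all genes counted (0.13 and -0.13). *Tbx3* and *Gata4* lie farthest to the right on the left panel, and *Mef2c* is far above 0 on the right panel.

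Most genes of the mature heart muscle were low throughout. Of 20 genes of the cardiac sarcomere, calcium handling and natriuretic peptides, 2 were counted from MES to HB, and 0 of them was higher or lower. These were *Tpm1*, a tropomyosin gene active in many cell types (253, 239, 227, 136 and 28.2 FPKM from ESC to MAC), and *Atp2a2*, a calcium pump gene used in most cells (25.1, 54.5, 73.4, 52.5 and 59.0 FPKM). In HB, where 7 members were over 1 FPKM, *Myh6* was at 0.0433 FPKM, *Myh7* at 0.0106, *Myl2* at 0.0200 and *Nppa* was listed at 0, and those of the list between 0.3 and 1 FPKM were *Tnni1* (0.763), *Actn2* (0.415), *Ryr2* (0.391) and *Tnni3* (0.333). From HB to HP *Tnni1*, the slow troponin I gene, was higher (0.763 to 6.83 FPKM), as was *Smyd1*, a methyltransferase gene of striated muscle (0.0464 to 1.02 FPKM). The label cardiac thus describes the known role of the members, and in HB, where the members were highest, 18 of the 20 genes of this list were under 1 FPKM.

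In MEFs the set of members over 1 FPKM was a different one. *Hand1*, *Nkx2-5*, *Isl1*, *Myl7* and *Actc1* were under 1 FPKM in all 8 libraries, with *Actc1* in untreated MEFs at day 12 the highest of these values at 0.323 FPKM. *Hand1*, the leading gene in HB, was listed at 0 in 7 of the 8 libraries and at 0.0226 FPKM for uFIB at day 21. The other 5, *Hand2*, *Tbx5*, *Tnnc1*, *Tnnt2* and *Myl4*, were over 1 FPKM in at least 1 library. The tables of stages and MEFs were normalized separately, so that levels were not compared between them.

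**Figure D3:**
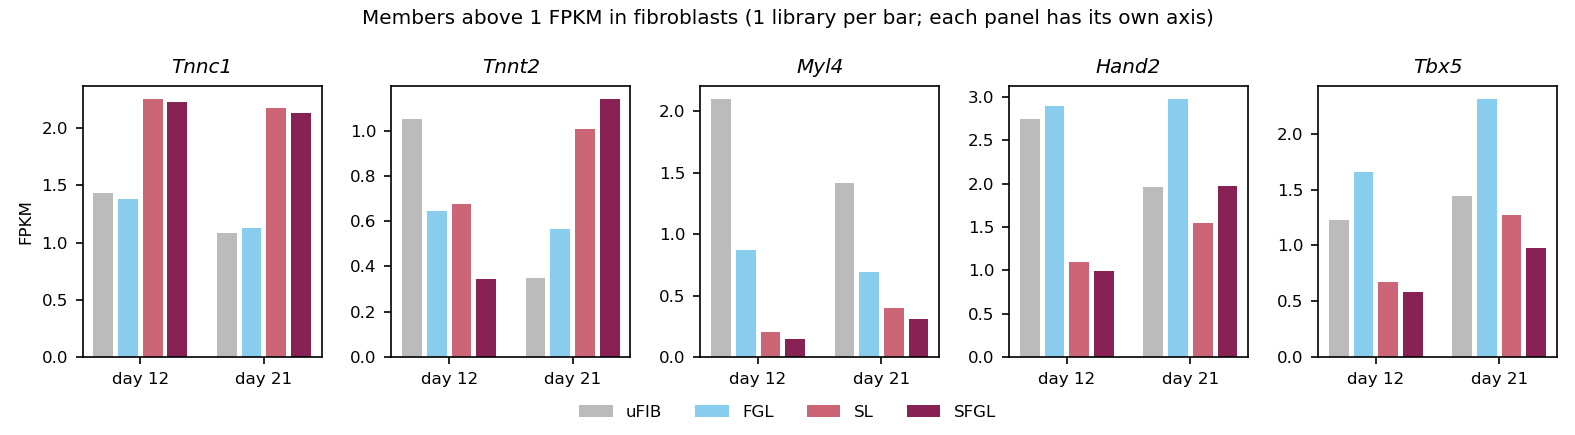
FPKM of the 5 members that reached 1 FPKM in MEFs (1 panel each, with its own y axis from 0) by day on the x axis, 1 bar per library: uFIB grey, FGL light blue, SL red and SFGL purple. *Tnnc1* is higher in SL and SFGL on both days, *Myl4* is highest in uFIB on both days, and *Tnnt2* is highest in uFIB at day 12 and in SFGL at day 21.

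*Hand2* at day 12 was at 2.74 FPKM in uFIB, 2.89 in the library labelled FGL, 1.10 in SL and 0.995 in SFGL, and at day 21 at 1.96, 2.98, 1.55 and 1.98 FPKM. *Tbx5* was at 1.23, 1.66, 0.672 and 0.579 FPKM at day 12 and at 1.44, 2.31, 1.28 and 0.979 FPKM at day 21, in the same order of libraries. On each day both genes had their highest value in FGL. *Hand2* was 2.49-fold lower in SL and 2.76-fold lower in SFGL than in uFIB at day 12 (log2 differences -0.83 and -0.91), and *Tbx5* was 2.12-fold lower in SFGL (-0.50). At day 21 neither gene met the 2-fold limit in any treatment.

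*Myl4* at day 12 was at 2.10 FPKM in uFIB, 0.868 in FGL, 0.207 in SL and 0.142 in SFGL, and at day 21 at 1.41, 0.688, 0.399 and 0.313 FPKM. It was the only member counted as lower in all 6 comparisons of a treatment with uFIB of the same day, which share the uFIB libraries. The largest difference was in SFGL at day 12, 14.8-fold (log2 difference -1.44), and the smallest in FGL at day 21, 2.05-fold (-0.52). In FGL only 1.19% of all genes at day 12 and 0.984% at day 21 were lower than in uFIB. The corresponding shares were 18.2% and 15.7% in SL and 21.5% and 20.2% in SFGL. The shares of genes higher than in uFIB were 16.3% and 14.6% in SL, 16.9% and 16.5% in SFGL and 3.91% and 1.15% in FGL.

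*Tnnc1* at day 12 was at 1.43 FPKM in uFIB, 1.38 in FGL, 2.26 in SL and 2.23 in SFGL, and at day 21 at 1.08, 1.13, 2.18 and 2.13 FPKM. The 4 libraries given *Scl* lay between 2.13 and 2.26 FPKM and did not overlap the other 4, at 1.08 to 1.43 FPKM. Such a separation upward was seen in 29.1% of the 12807 genes with at least 1 FPKM in a library, and downward, as for *Myl4*, in 31%, so it does not set these members apart from other genes. By the 2-fold limit *Tnnc1* was higher in SL at day 21 only (2.02-fold, log2 difference 0.61), where 14.6% of genes were higher, and it missed the limit after scaling, when 14.2% were.

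*Tnnt2* at day 12 was at 1.05 FPKM in uFIB, 0.646 in FGL, 0.675 in SL and 0.342 in SFGL, and at day 21 at 0.349, 0.567, 1.01 and 1.14 FPKM. The highest library at day 12 was thus the lowest at day 21. It was 3.07-fold lower in SFGL than in uFIB at day 12 (log2 difference -0.61) and 3.26-fold higher at day 21 (0.67), where 16.5% of genes were higher. In SL it was 2.88-fold higher at day 21 (0.57). Between the days, *Tnnt2* was 3.01-fold lower at day 21 than at day 12 for uFIB (log2 difference -0.60), where 2.73% of genes were lower, and 3.33-fold higher in SFGL (0.67), where 4.29% were higher. No other member met the limit between the days, for which the shares of all genes higher and lower were 3.5% and 2.73% in uFIB, 3.42% and 4.67% in SL, 4.29% and 4.82% in SFGL and 5.1% and 5.9% in FGL. All of these values are near 1 FPKM and come from 1 library each.

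Over all 6 comparisons with uFIB, members were counted as higher 3 times and as lower 10 times, within the limit 16 times and under 1 FPKM in both libraries 31 times. In these comparisons 1.15% to 16.9% of all genes were higher and 0.984% to 21.5% lower. Against the mean of both uFIB libraries, members were higher 0 times and lower 9 times. Without the libraries labelled FGL, an alternative chosen after the values were seen, the counts were 3 and 8. SL and SFGL, in which *Hand2* was lower at day 12 and *Myl4* on both days, were also the libraries with less of the fibroblast markers and more of the red cell genes, whose 8 markers summed to between 141 and 422 FPKM for SL and SFGL and to between 0.599 and 87.0 FPKM for uFIB and FGL. In SL and SFGL at day 12 all 7 fibroblast markers were lower than in uFIB, and in FGL, where *Myl4* was lower too, 0 of 7 met the limit on either day. In FGL at day 12 all 8 red cell markers were higher than in uFIB, with a sum of 87.0 FPKM against 0.599 FPKM, and at day 21 their sum was 1.15 FPKM. The 15 skeletal muscle markers summed to between 9.75 and 13.5 FPKM for SL and SFGL and to between 3.18 and 8.06 FPKM for uFIB and FGL, and the 5 smooth muscle markers to between 84.0 and 147 and between 191 and 563 FPKM. In SL and SFGL only 2 of the 15 skeletal muscle markers reached 1 FPKM at day 12 and 3 at day 21. These were *Mylpf* and *Tnnt1*, joined by *Acta1* at day 21, so the sums do not describe the list as a whole. The part of these cell types in the members' values was not tested.

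Of the 27 other regulators, more were lower than higher in each library given *Scl*. At day 12, 11 of 18 counted were lower and *Foxh1* and *Hopx* higher in SL, and 14 lower and the same 2 higher in SFGL. At day 21, 7 of 18 were lower and 4 higher in SL, and 12 lower and 3 higher in SFGL. The median differences were -0.97, -1.22, -0.59 and -0.87, beside medians over all genes of -0.03, -0.03, -0.04 and -0.04. In FGL, 0 of 16 met the limit at day 12, and at day 21 1 of 17 was higher and 0 were lower. Among them were *Prrx1*, a homeobox gene of limb and connective tissue mesenchyme (at day 12 115 FPKM in uFIB, 119 in FGL, 24.1 in SL and 21.0 in SFGL), and *Pdgfra*, a receptor gene of mesenchyme (86.6, 103, 27.2 and 17.8 FPKM). Of the sarcomere list, *Csrp3*, the gene for muscle LIM protein, was higher in SL and SFGL on both days (0.0791 FPKM for uFIB, 1.82 for SL and 4.18 for SFGL at day 12), *Tnni3*, the cardiac troponin I gene, was higher in all 3 treatments at day 21 (1.11 FPKM in uFIB, 3.02 in FGL, 2.92 in SL and 4.11 in SFGL) and lower in uFIB at day 21 than at day 12 (3.28 FPKM), and *Tpm1* was lower in both SL and SFGL at day 12 (409 FPKM for uFIB, 165 for SL and 147 for SFGL).

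**Figure D4:**
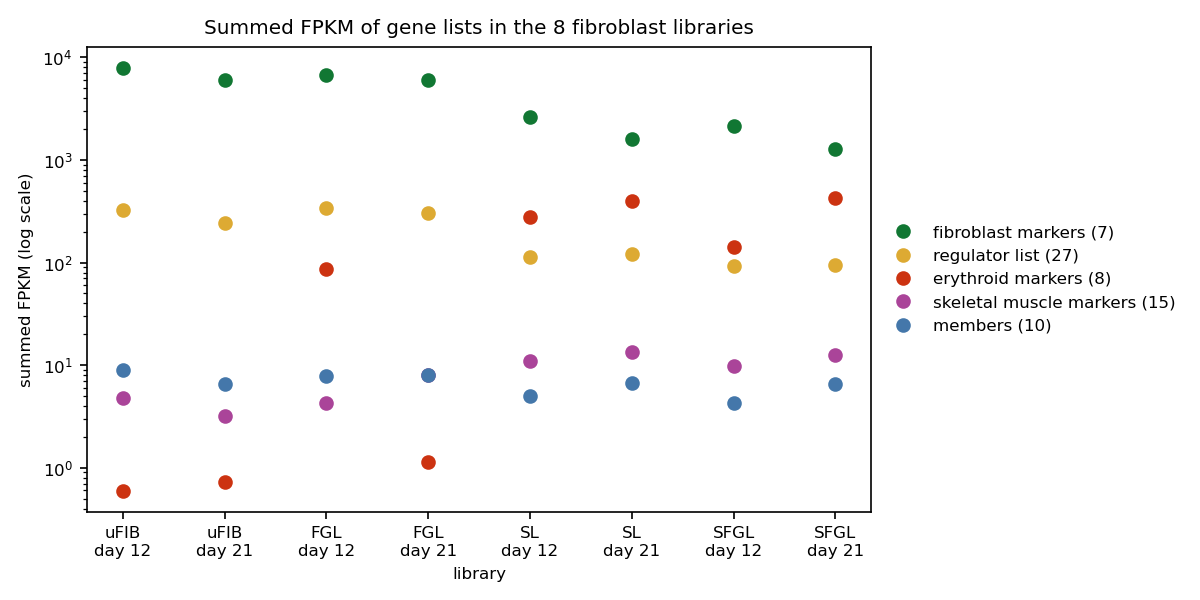
Summed FPKM (y axis, log scale) of 5 gene lists in the 8 fibroblast libraries (x axis), 1 point per list and library. The members lie between 4.29 and 8.90 FPKM in all 8 libraries, while the fibroblast markers are lower and the erythroid markers higher in SL and SFGL than in uFIB.

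*Hand1* was the only member to reach 10 FPKM in any column, and genes of like profile were sought for it among 8991 genes of at least 10 FPKM. Over the 13 values of both tables, on log2(FPKM + 1) centred within each table, the highest Pearson correlations were those of *Exoc3l* (r = 0.989) and *Aimp2* (r = 0.971), a gene for a scaffold protein of the tRNA synthetase complex. *Exoc3l* was at 9.07, 12.3, 33.5, 5.16 and 1.10 FPKM from ESC to MAC, and thus had its peak in HB as *Hand1* did. *Aimp2* was at 37.6, 45.9, 61.7, 37.3 and 17.4 FPKM. The 13 values are not independent, since the stages came from 1 cell line and each r was the highest of many.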

How the data were processed

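RNA-seq values of 18 mouse samples were used as FPKM, as the authors deposited them. For the stages, the authors aligned ribosome-depleted SOLiD reads with SHRiMP to mm10 (GRCm38), kept unique alignments, removed duplicates with Picard and ran Cufflinks, giving 1 value per start site and stage with both replicates combined. For the MEFs, the submitters' processing notes name TopHat and Cufflinks, and the table gives 1 value per gene and library. Versions were not given in the sources used here. Genes with near-identical copies lose reads when only unique alignments are kept. A further column of the stage table, 1 in all, holds a stage without a sample in the labels and was left out. The depth is unknown. For genes above 0 and under 0.3 FPKM both in uFIB at day 12 and in another MEF library, the ratio of the values was taken. Of these genes, 15.3% to 19.2% lay within 1% of the most common ratio, which was picked from the same values. Read as a ratio of depths, it was 0.582 to 1.56 of that of uFIB at day 12. Reads could not be recovered, and no interval is given.

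Samples were grouped by their labels. Start sites were summed per gene. With no replicate values, no test was run, and genes were counted by limits of 2-fold, on log2(FPKM + 0.001), and 1 FPKM in the pair compared. The study applied its 2-fold limit to DESeq calls on read counts, its 1 FPKM limit over all cell types and the pseudocount of 0.001 to clustering, so the rule here is not the study's. Upper quartiles were taken over genes above 0 (percentile 75). By rule, all members, the transgenes, up to 4 genes of highest FPKM per list and table and the 2 genes of most similar profile to a member over 10 FPKM could be named. Further listed genes (*Gata4*, *Mef2c*, *Mesp2*, *Hopx*, *Smyd1*, *Myh6*, *Myh7*, *Myl2*, *Nppa*, *Actn2*, *Ryr2*, *Mixl1*, *Eomes*, *Cdh5*, *Pecam1*, *Thy1* and *Lum*) were named after their values were seen. The values of 1 listed regulator are not reported here, although it is part of the list's counts. Members and lists were chosen with earlier results of these data known. Positions are those of the authors' table counted from 1, and each overlapped the gene in GENCODE M21. As a check of the code only, changes past the 2-fold limit and without noise were put into 200 genes of 1 column per table. All 200 were recovered with 0 false calls among 20310 genes (stages) and among 20495 genes (MEFs). That outcome was fixed by the construction and gives no error rate for the calls. The alternatives were pseudocounts of 0.1 and 1, FPKM limits of 0 and 5, a 4-fold limit, upper quartile scaling, the highest start site in place of the sum and the 2 uFIB libraries averaged as reference. Tools were pandas 2.3.3, NumPy 2.4.6 and matplotlib 3.10.9 under Python 3.11.15.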

Additional observations from a re-analysis of the deposited data

Results flagged for a closer look

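*Tnnt2* differed from uFIB in opposite directions on the 2 days of SFGL: on log2(FPKM + 1) the difference was -0.61 at day 12 and 0.67 at day 21, both past the 2-fold limit. The difference between the days was not tested, since each value comes from 1 library, and *Tnnt2* itself was 3.01-fold lower in uFIB at day 21 than at day 12.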

How the results depend on the processing

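No stage value has a replicate error and no MEF condition a second library, so no call was tested, and calls near 1 FPKM depend on the limits. No paired analysis was possible because the replicates of a stage are combined in 1 value and each MEF condition has 1 library. In all, 61 counts of member calls stayed within 1.5 times and 29 did not, and the called differences of single members kept their direction in all alternatives run for them. The differences of members over 1 FPKM that turned after upper quartile scaling were near 0 and not called: *Tnnc1* in FGL against uFIB (-0.03 to 0.01 at day 12 and 0.03 to -0.02 at day 21) and between days in SL (-0.03 to 0.04) and SFGL (-0.05 to 0.03), and *Hand2* between days in FGL (0.03 to -0.03). With a pseudocount of 1, members lower from ESC to MES were 1 (2 as reported), from HP to MAC 1 (3), higher and lower against uFIB 0 (3) and 2 (10), and higher and lower between days 0 (1) and 0 (1). Without a limit on FPKM, 1 member was higher from HB to HP (0), 7 were lower from HP to MAC, and the counts against uFIB were 7 higher and 19 lower and between days 7 higher and 4 lower. At 5 FPKM or more, 0 were higher and 0 lower from ESC to MES, 2 higher from MES to HB (4), 3 lower from HB to HP (5), 0 lower from HP to MAC, 0 called in any MEF comparison, and 3 highest in HB (5). At 4-fold, 0 were lower from ESC to MES, 0 higher and 3 lower against uFIB, and 0 called between days. After upper quartile scaling, 3 were higher between days (*Tnnt2* in SFGL, joined by *Hand2* in SFGL and *Tbx5* in SL), and against the mean of both uFIB libraries 0 were higher. The alternatives for the stage of highest expression were chosen after seeing the data. The causes were not tested beyond the construction of each setting.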
